A study of Mus musculus with 4 samples.

Results

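The genes described here make cholesterol and fatty acids, control that synthesis through SREBP transcription factors, move sterols inside the cell, or export them. Of 37 genes listed by textbook role, 34 had at least 1 probe set assigned to a single gene, 78 probe sets in all, among 18193 genes so measured on the arrays. Acat2, Soat1 and Nr1h2 were not analysed here. A gene is represented by its brightest probe set, and 33 of the 34 genes lay at or above the level cutoff used for counts (mean of the 4 arrays at log2 5.28, the 40th percentile of genes). The exception was Nr1h3. Of the 78 probe sets, 63 had a mean above the cutoff.

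The study measured poly(A) RNA of mouse dermal fibroblasts on 4 Affymetrix arrays, 1 array for each group. The in vivo deleted group came from mice carrying a Cre transgene labelled ColI and a homozygous floxed gene for RBP-Jk (Rbpj), and its control carried the floxed gene without Cre. The in vitro deleted group received an adenovirus encoding Cre, and its control an adenovirus encoding GFP. The genetic background is given as C57BL/6 for all samples, without age, sex, passage or medium. The label names the promoter of the transgene only as ColI, and the fibroblasts that express it are not further described. With 1 array per group there is no replicate, so the differences below have no replicate check and no p-value within a system, and the number of arrays limits the precision. Poly(A) RNA from a culture or tissue is a bulk measurement, in which fewer cells of a type and less RNA per cell cannot be told apart.

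Cholesterol is built from acetyl-CoA through mevalonate, isoprenoid diphosphates and squalene, which is cyclised to lanosterol and then trimmed to cholesterol. When membranes of the endoplasmic reticulum are poor in sterol, Scap carries the SREBP precursors to the Golgi, where proteases release the part that enters the nucleus and switches on these genes. When sterol is plentiful, the Insig proteins hold Scap back, while oxysterols activate the LXR receptors, which induce the exporters Abca1 and Abcg1. SREBPs bind next to the factor NF-Y at many of these promoters, and fibroblasts, unlike liver, make sterols mainly for their own membranes.

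Promoters of RefSeq (build GRCm38.p6, 250 bases before to 50 bases after each start) were found for 29 of the 37 genes, in 38 windows. They are shown because the sterol genes differed together in vivo. Hmgcs1, Mvd, Cyp51 and Nsdhl stand for that arm, Fasn for a fatty acid gene without such a difference and Abca1 for export. Each is written 5′ to 3′ on the strand of the gene, and capitals mark every match on either strand to CCAAT (the NF-Y box), TCACNCCAC (the core of a sterol regulatory element) or GTGGGAA (a motif of RBP-J).
Hmgcs1: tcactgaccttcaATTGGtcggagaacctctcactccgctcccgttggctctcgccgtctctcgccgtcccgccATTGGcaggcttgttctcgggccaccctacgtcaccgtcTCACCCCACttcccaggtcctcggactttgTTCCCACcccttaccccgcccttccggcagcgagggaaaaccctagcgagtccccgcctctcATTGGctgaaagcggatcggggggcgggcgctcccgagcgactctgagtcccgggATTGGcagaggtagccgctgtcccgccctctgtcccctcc
Mvd: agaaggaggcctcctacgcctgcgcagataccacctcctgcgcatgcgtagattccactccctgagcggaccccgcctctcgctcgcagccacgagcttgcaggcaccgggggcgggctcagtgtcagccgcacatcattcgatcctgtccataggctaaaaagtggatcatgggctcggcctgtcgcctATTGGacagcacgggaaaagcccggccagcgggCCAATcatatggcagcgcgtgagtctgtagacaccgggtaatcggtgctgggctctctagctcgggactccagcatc
Cyp51: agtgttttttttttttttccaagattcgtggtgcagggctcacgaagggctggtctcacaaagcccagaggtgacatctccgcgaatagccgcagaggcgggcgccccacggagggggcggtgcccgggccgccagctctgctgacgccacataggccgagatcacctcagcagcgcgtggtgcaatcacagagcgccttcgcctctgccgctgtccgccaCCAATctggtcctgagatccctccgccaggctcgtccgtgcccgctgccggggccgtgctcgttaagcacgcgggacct
Nsdhl: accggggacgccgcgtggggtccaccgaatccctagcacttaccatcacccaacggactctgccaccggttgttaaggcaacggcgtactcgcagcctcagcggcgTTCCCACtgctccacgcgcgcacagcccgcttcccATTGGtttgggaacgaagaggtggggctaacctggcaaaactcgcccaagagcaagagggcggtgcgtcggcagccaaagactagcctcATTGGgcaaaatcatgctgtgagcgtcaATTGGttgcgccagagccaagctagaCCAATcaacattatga
Fasn: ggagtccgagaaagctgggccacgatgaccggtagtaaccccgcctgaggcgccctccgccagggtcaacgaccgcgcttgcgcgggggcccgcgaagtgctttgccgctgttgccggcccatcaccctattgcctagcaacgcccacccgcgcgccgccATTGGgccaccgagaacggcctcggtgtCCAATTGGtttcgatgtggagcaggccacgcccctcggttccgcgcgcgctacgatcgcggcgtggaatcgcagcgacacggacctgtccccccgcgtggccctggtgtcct
Abca1: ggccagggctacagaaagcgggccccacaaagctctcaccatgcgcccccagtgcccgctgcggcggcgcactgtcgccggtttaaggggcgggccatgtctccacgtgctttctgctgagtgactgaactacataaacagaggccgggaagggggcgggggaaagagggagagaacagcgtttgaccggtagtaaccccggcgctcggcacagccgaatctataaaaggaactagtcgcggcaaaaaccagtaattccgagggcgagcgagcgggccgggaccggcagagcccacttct

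The windows lie at chr13:119690101-119690400 (Hmgcs1, plus strand), chr8:122443373-122443672 (Mvd, minus strand), chr5:4104648-4104947 (Cyp51, minus strand), chrX:72918271-72918570 (Nsdhl, plus strand), chr11:120824498-120824797 (Fasn, minus strand) and chr4:53159846-53160145 (Abca1, minus strand). CCAAT, read on both strands, was present in 14 of the 18 windows of sterol synthesis genes (77.8%), covering 14 of the 15 genes of that arm with a window, against 37.4% of the 32851 windows in the table. It was present in 5 of 10 windows of SREBP control genes, 2 of 2 of transport and esterification genes, 2 of 4 of fatty acid genes and 0 of 4 of LXR and export genes. In the Fasn window 2 of the matches overlap each other. TCACNCCAC was found in 1 member window, that of Hmgcs1, which holds TCACCCCAC, against 1.24% of all windows. GTGGGAA was found in 3 of the 38 member windows (7.89%), those of Hmgcs1, Nsdhl and Sc5d, against 6.38% of all windows. All 3 belong to sterol synthesis, where they are 3 of 18 windows (16.7%), and each other arm had 0. The LXR element, a direct repeat with 4 spacer bases, was found without mismatch in 0 member windows and in 5 of all windows (0.0152%). A match describes the letters of a window, and no binding was measured.

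In vivo, every listed gene of sterol synthesis that was analysed here was lower in the deleted array. Of 17 genes, 17 were lower and 14 at least 2-fold lower, with a median log2 difference of -1.16, whereas 3.81% of the 10916 genes analysed were at least 2-fold lower, 53.6% were lower at all, and the median of all genes was -0.03. In vitro, 10 of the 17 were lower and 0 at least 2-fold lower, where 57.5% and 1.15% of all genes were, and the median was -0.08, beside -0.06 for all genes. The in vivo differences of this arm ran from -2.22 to -0.53, and the in vitro differences from -0.93 to 0.40. The in vivo and in vitro pairs share no array.

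**Figure D1:**
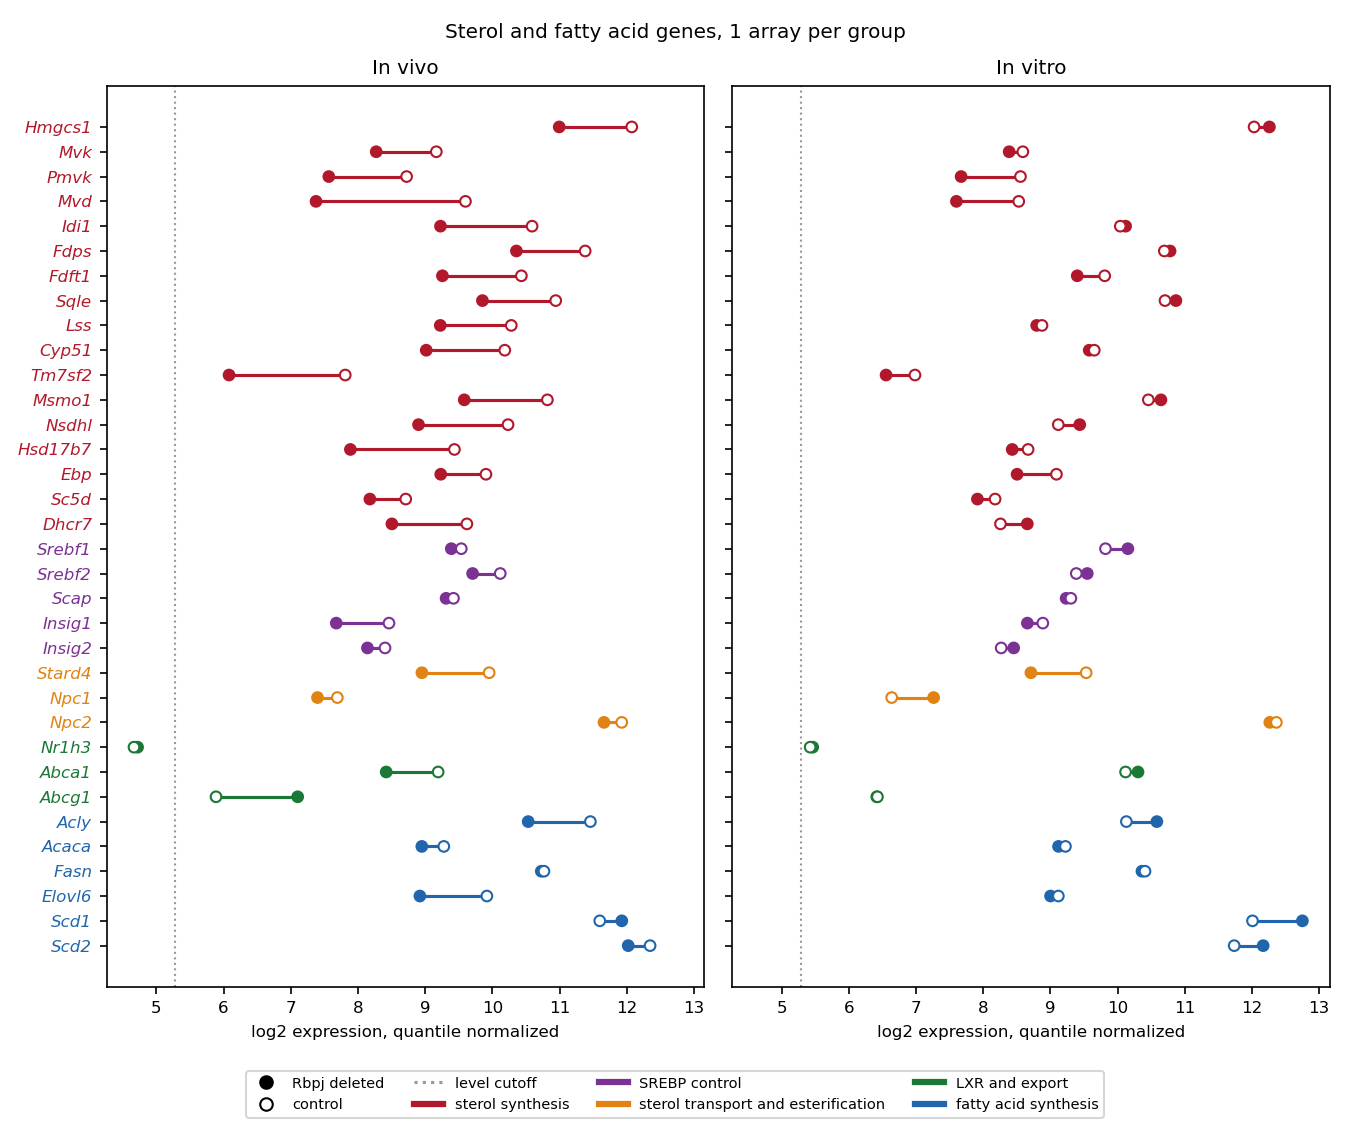
Log2 expression (x axis, quantile normalized) of the brightest probe set of each of the 34 measured genes (rows, in pathway order and coloured by arm) in vivo (left) and in vitro (right). Filled points are Rbpj-deleted arrays, open points control arrays, and the dotted line is the level cutoff of 5.28. In vivo, all 17 sterol synthesis genes have the filled point to the left of the open one.

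All 6 genes analysed between HMG-CoA synthesis and farnesyl diphosphate were lower in vivo, and not every step of that stretch was analysed here. Hmgcs1, the synthase that makes HMG-CoA, read 10.99 in the deleted and 12.07 in the control array, and 12.26 and 12.03 in the deleted and control cultures (all on the log2 scale). It was thus highest in the deleted culture and lowest on the deleted in vivo array, and 4 of its probe sets above the cutoff differed in vivo by -1.31 to -1.08. The mevalonate kinase Mvk read 8.27 in the deleted and 9.17 in the control array in vivo, against 8.39 and 8.59 in the deleted and control cultures. A second probe set of Mvk gave -0.56 in vivo and 0.20 in vitro. Pmvk, the next kinase, read 7.56 and 8.72 in vivo and 7.67 and 8.55 in vitro, deleted before control in each pair. For Pmvk the deleted array was the lower in each system, by -1.16 in vivo and -0.88 in vitro.

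Mvd, the decarboxylase that yields isopentenyl diphosphate, had the largest difference of the 34 genes in each system, on the brightest probe sets. It read 7.37 in the deleted and 9.60 in the control array in vivo, a log2 difference of -2.22 (4.67-fold lower), and 7.60 in the deleted and 8.53 in the control culture, a difference of -0.93 (1.90-fold lower). Its second probe set gave -1.80 in vivo and -0.73 in vitro, so all 4 differences of Mvd had the same sign. The isomerase Idi1 read 9.23 and 10.59 in the deleted and control arrays in vivo, and 10.12 and 10.04 in the deleted and control cultures. The farnesyl diphosphate synthase Fdps read 10.36 in the deleted and 11.38 in the control array in vivo, and 10.78 and 10.69 in the deleted and control cultures. On these probe sets Idi1 and Fdps were more than 2-fold lower in vivo, and their in vitro differences were 0.08 and 0.09. A second probe set of Idi1 gave -2.32 in vivo and -0.41 in vitro, and the median of the 2 probe sets of Fdps gave -0.66 in vivo, short of 2-fold. The second probe set of Fdps lay under the cutoff on all 4 arrays.

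At the branch into sterols, Fdft1, the squalene synthase, was 9.26 in the deleted and 10.43 in the control array in vivo, and 9.40 in the deleted and 9.81 in the control culture. A second probe set of Fdft1 gave -1.52 in vivo, and the dimmest of those above the cutoff, with levels of 5.70 and 5.66 in the deleted and control arrays, gave 0.04. In vitro the second gave -0.76 and the dimmest 0.28. The squalene epoxidase Sqle, with 1 probe set, read 9.85 in the deleted and 10.94 in the control array in vivo, and 10.87 and 10.70 in the deleted and control cultures. Lss, which closes squalene epoxide into lanosterol, read 9.22 and 10.28 in the deleted and control arrays in vivo and 8.79 and 8.87 in the deleted and control cultures. A second probe set of Lss gave -2.004 in vivo, from 4.92 in the deleted array, under the cutoff, and 6.93 in the control array. On the brightest probe sets all 3 were past 2-fold in vivo and none of the 3 in vitro, while Fdft1 was at -0.74 in vivo, short of 2-fold, with the median of its probe sets.

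The enzymes that trim lanosterol followed the same direction in vivo. Cyp51, the lanosterol demethylase, differed by -1.17 in vivo (9.02 in the deleted and 10.18 in the control array) and its 3 probe sets ranged from -1.68 to -1.17, while in vitro it differed by -0.08. The sterol reductase Tm7sf2 read 6.08 in the deleted and 7.81 in the control array in vivo, a difference of -1.73 (3.32-fold lower), and 6.55 in the deleted and 6.98 in the control culture. Msmo1 and Nsdhl, which act in turn to take methyl groups off the ring, differed by -1.24 and -1.33 in vivo and by 0.19 and 0.32 in vitro. With the median of its 2 probe sets Msmo1 was at -0.82 in vivo, short of 2-fold, the second probe set being under the cutoff on all 4 arrays. Hsd17b7, the ketoreductase of the same step, differed by -1.55 in vivo, with 3 probe sets from -1.84 to -1.16. In vitro its brightest probe set gave -0.24 and the others up to 0.57, so its in vitro direction depended on the probe set.

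Ebp and Sc5d, late in the pathway, had the smallest in vivo differences of the arm on the brightest probe sets. The isomerase Ebp read 9.23 in the deleted and 9.90 in the control array, a difference of -0.67. The desaturase Sc5d differed by -0.53 on its brightest probe set, by -1.49 on its second and by -0.01 on its dimmest, whose in vivo levels of 5.22 in each array lay under the cutoff. Dhcr7, the reductase of the last step, read 8.50 in the deleted and 9.62 in the control array (-1.12), and 8.66 in the deleted and 8.26 in the control culture (0.40). Over all probe sets of the arm, 31 of the 32 above the cutoff were lower in vivo and 26 were at least 2-fold lower, where 50.6% and 3.34% of the 18127 single-gene probe sets above the cutoff were.

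In vivo values just past and just short of 2-fold were those of Fdps (-1.02), Stard4 (-1.0008), Elovl6 (-0.997) and Acly (-0.93), so the count of genes past 2-fold turns on small steps there. Of all 33 genes above the cutoff, 15 were at least 2-fold lower in vivo, and 1 was at least 2-fold higher, where 2.81% of all genes were. In vitro none of the 33 was past 2-fold in either direction, where 0.788% of all genes were at least 2-fold higher.

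The genes of the SREBP machinery itself showed small in vivo differences, with 5 of 5 lower and a median of -0.26, beside 53.6% of all genes lower and a median of -0.03. Srebf2, the SREBP gene chiefly tied to sterol synthesis, read 9.71 in the deleted and 10.12 in the control array, a difference of -0.41. Srebf1, tied chiefly to fatty acid synthesis, read 9.39 in the deleted and 9.54 in the control array (-0.15), and 10.15 in the deleted and 9.82 in the control culture (0.33). The escort protein gene Scap read 9.31 in the deleted and 9.42 in the control array in vivo and 9.23 and 9.30 in the deleted and control cultures. Insig1, which holds Scap in the endoplasmic reticulum and is itself an SREBP target, had the largest in vivo difference of the 5 on the brightest probe sets. It read 7.68 in the deleted and 8.46 in the control array in vivo (-0.78), against 8.66 and 8.89 in the deleted and control cultures. Its relative Insig2 differed by -0.26 in vivo and by 0.19 in vitro. Other probe sets of Insig2 gave -0.30 and -0.83 in vivo, and -0.19 and -0.01 in vitro. The dimmest read 5.25 in the deleted array in vivo, under the cutoff. The SREBP protease genes Mbtps1 and Mbtps2 differed by 0.02 and 0.0034 in vivo.

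Among genes that move sterols inside the cell, Stard4, a soluble sterol carrier, read 8.95 in the deleted and 9.95 in the control array in vivo, and 8.71 in the deleted and 9.53 in the control culture. The difference was -1.0008 in vivo and -0.82 in vitro, but its other 2 probe sets gave -0.88 and -0.69 in vivo and 0.34 and -0.25 in vitro, and with the median of all 3 it was at -0.76 in vivo, short of 2-fold. Npc1 and Npc2, which carry cholesterol out of lysosomes, differed in vivo by -0.30 and -0.26. Other probe sets of Npc2 above the cutoff gave -0.34 and -0.93 in vivo, the last from 5.28 in the deleted array, near the cutoff, and 6.22 in the control array. In vitro Npc1 was higher in the deleted culture, at 7.26 against 6.64 in the control culture (0.62), while Npc2 differed by -0.10.

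**Figure D2:**
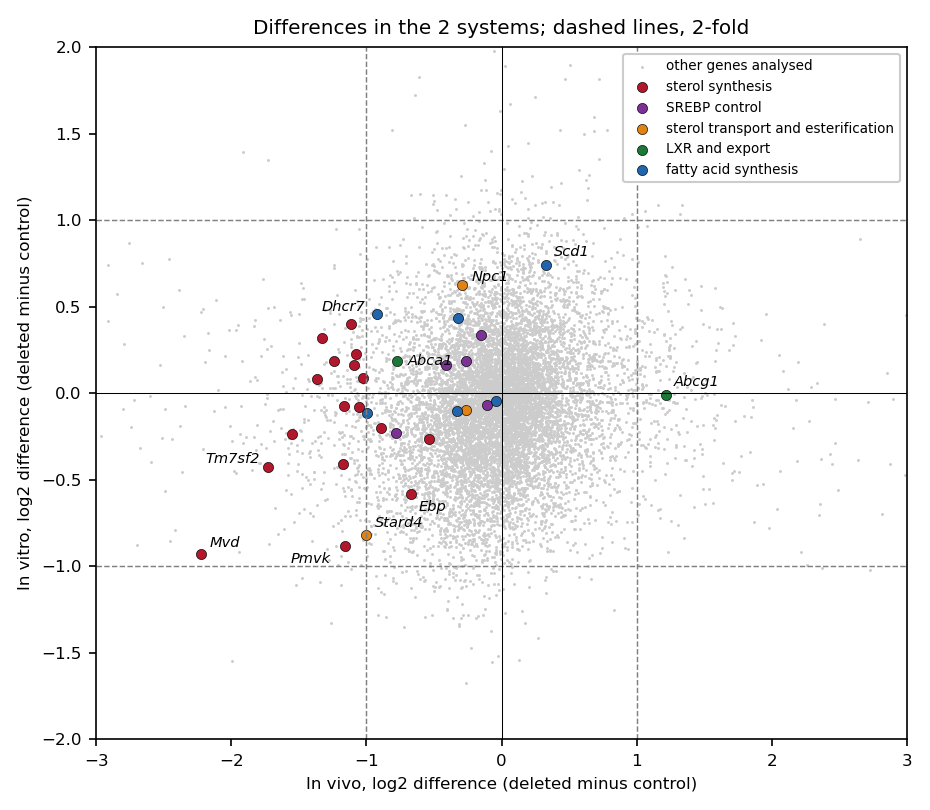
Log2 difference, deleted minus control, in vivo (x axis) and in vitro (y axis) for each gene analysed (grey) and for the 33 sterol and fatty acid genes above the level cutoff (coloured by arm), with dashed lines at 2-fold and 27 genes outside the axes. Sterol synthesis genes lie left of 0, from -2.22 to -0.53, while their in vitro values spread around 0.

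Fatty acid synthesis genes had smaller in vivo differences and varied among themselves. In vivo 5 of 6 were lower, 0 by 2-fold, with a median of -0.33, where 53.6% of all genes were lower and 3.81% at least 2-fold lower. In vitro 3 of 6 were lower, with a median of 0.19, near the 57.5% of all genes that were lower. Acly, which makes cytosolic acetyl-CoA for sterols and fatty acids alike, read 10.53 in the deleted and 11.46 in the control array in vivo (-0.93), and its 3 probe sets above the cutoff ranged from -0.93 to -0.76. The elongase Elovl6 read 8.92 in the deleted and 9.92 in the control array, with 3 probe sets from -0.997 to -0.78. Acaca, the acetyl-CoA carboxylase, differed by -0.33.

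Fasn, the fatty acid synthase, had nearly equal values within each pair, 10.73 in the deleted and 10.77 in the control array in vivo, and 10.36 in the deleted and 10.41 in the control culture. The stearoyl-CoA desaturase gene Scd1 was higher in the deleted array of each system, at 11.93 against 11.60 in the control in vivo (0.33) and 12.75 against 12.01 in the control culture (0.74). Its relative Scd2 read 12.02 in the deleted and 12.35 in the control array in vivo (-0.33), and 12.17 in the deleted and 11.73 in the control culture (0.43). Fasn, Acaca and the desaturases thus lay outside the range of the sterol arm in vivo, while Acly and Elovl6 lay within it. Scd1 and Scd2 are paralogues, and cross-hybridisation between their transcripts was not tested.

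On their brightest probe sets, the 2 export genes differed in opposite directions in vivo. Nr1h3, the gene of LXR alpha, was under the cutoff in vivo, at 4.72 in the deleted and 4.67 in the control array, and near it in vitro, at 5.46 in the deleted and 5.42 in the control culture. Abca1, which loads cholesterol onto lipid-poor apolipoproteins, read 8.42 in the deleted and 9.19 in the control array in vivo (-0.77), and 10.30 in the deleted and 10.12 in the control culture (0.19). Abcg1, which passes cholesterol to mature lipoprotein particles, went the other way in vivo, at 7.10 in the deleted and 5.89 in the control array (1.22, 2.32-fold higher), and read 6.42 on each of the in vitro arrays. A second probe set of Abcg1 lay under the cutoff on all 4 arrays and differed by 0.07 in vivo. A second probe set of Abca1, above the cutoff on average, gave 0.12 in vivo, from 5.56 in the deleted and 5.44 in the control array. The third, under the cutoff on average, gave 0.01 in vivo. In vitro the third gave 2.67, from 6.58 in the deleted and 3.91 in the control culture.

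The 21 further lipid genes listed by role add to the comparison of arms. Of the 19 with a probe set, 18 lay above the cutoff, of which 15 were lower in vivo and 3 at least 2-fold lower, with a median of -0.40, and none was at least 2-fold higher, where 53.6%, 3.81% and 2.81% of all genes were. In vitro 9 were lower and 9 higher, 0 past 2-fold, where 57.5% of all genes were lower. Acss2, the cytosolic acetyl-CoA synthetase and an SREBP target, read 6.12 in the deleted and 8.72 in the control array in vivo (-2.60), against 8.42 and 8.44 in the deleted and control cultures. Ggps1 and Tmem97, listed with Acss2 as sterol and isoprenoid genes, differed by -0.34 and 0.41 in vivo. Mylip, an LXR target whose product marks lipoprotein receptors for degradation, read 8.33 in the deleted and 9.95 in the control array in vivo (-1.62), and 8.76 in the deleted and 8.72 in the control culture. Mylip is 1 of 4 genes above the cutoff listed as LXR targets or oxysterol genes, and all 4 were lower in vivo, with a median of -0.61, and higher in vitro, with a median of 0.20. The other 3 were Lpcat3 (-0.65 in vivo, 0.36 in vitro), Pltp (-0.57 and 0.56) and Ch25h (-0.03 and 0.01). Slc25a1, the mitochondrial citrate carrier that feeds Acly, read 9.52 in the deleted and 10.53 in the control array (-1.01). It is 1 of 9 genes above the cutoff listed as fatty acid and glycerolipid genes. All 9 were lower in vivo, with a median of -0.47, where 53.6% of all genes were. In vitro 6 of these 9 were lower, with a median of -0.04, where 57.5% of all genes were.

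Across the systems, the control array in vivo stood above the others for the sterol arm. It was the highest of the 4 arrays for 16 of the 17 sterol synthesis genes, all but Hmgcs1, whereas it was highest for 23.6% of all genes analysed. The deleted in vivo array was the lowest of the 4 for 13 of the 17, against 29.5% of all genes, the other 4 being Lss, Ebp, Sc5d and Dhcr7. The in vivo control exceeded the in vitro control by a median of 0.62 over the arm, against 0.01 over all genes, and the in vivo deleted array differed from the in vitro deleted array by a median of -0.42, against 0.08. For fatty acid synthesis the in vivo control was the highest array for 5 of 6 genes, and for SREBP control for 2 of 5. The bioB hybridisation spike read 6.91 and 6.95 in vivo and 8.27 and 8.31 in vitro (deleted, control), and the systems therefore cannot be told apart from array batches.

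**Figure D3:**
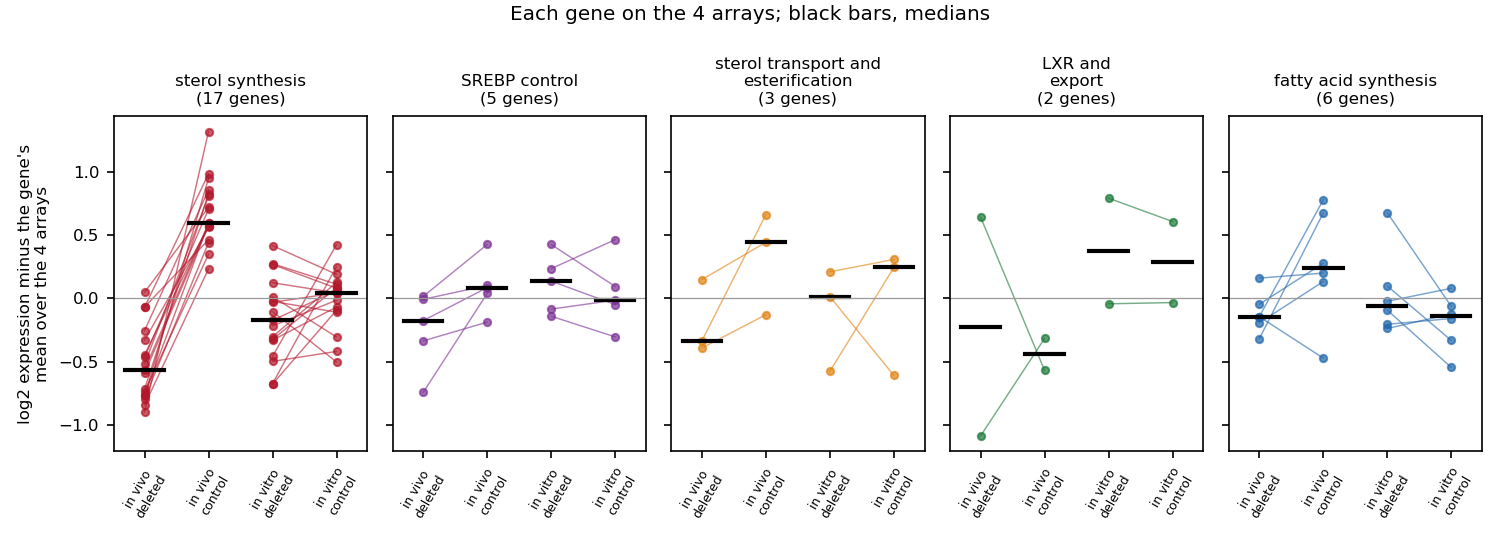
Log2 expression of each gene above the cutoff minus its own mean over the 4 arrays (y axis), by array (x axis) and arm (panels), with lines joining the arrays of a pair and black bars at the medians. In the sterol synthesis panel the in vivo control is the highest array for 16 of 17 genes and the in vivo deleted array the lowest for 13.

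The in vitro values of several genes depended on the probe set. Of 18 genes with more than 1 probe set above the cutoff, the probe sets of a gene spread over more than 1 log2 unit for 6 in vitro and for 2 in vivo (Fdft1 and Sc5d). Probe sets of a gene had opposite signs for 8 of the 18 genes in vitro and for 2 in vivo. The pooled SD over probe sets of a gene was 0.60 in vitro and 0.41 in vivo. The 3 probe sets of Scd2 differed in vitro by 0.43, 1.72 and 2.99, from the brightest to the dimmest, and the dimmest read 9.15 in the deleted and 6.16 in the control culture. The same 3 probe sets gave -0.33, -0.21 and -0.01 in vivo.

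Abca1 had in vitro differences of 0.19 on its brightest probe set and 2.53 on the second, which read 7.60 in the deleted and 5.07 in the control culture, the control under the cutoff. Acly had 0.45, -0.20 and 1.48, in order of brightness. Of the 63 member probe sets above the cutoff, 5 were at least 2-fold higher in vitro, 2 of Scd2 and 1 each of Scd1, Abca1 and Acly, none of them the brightest of its gene, and 0 were at least 2-fold lower. Of the 18127 single-gene probe sets above the cutoff, 3.87% were past 2-fold in the higher direction in vitro and 1.16% in the lower. The 3′ probe set of Gapdh exceeded its 5′ probe set by 0.02 in the deleted and 1.003 in the control culture. For Actb this excess was 0.40 in the deleted and 1.11 in the control culture, and for Pcx 2.01 in the deleted and 3.16 in the control culture. In vivo the deleted and control arrays gave 0.13 and 0.14 with Gapdh, 0.15 and 0.41 with Actb, and 0.83 and 1.10 with Pcx. The 3′ bias was thus higher in the control culture than in the deleted culture, and its part in the in vitro differences was not tested.

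**Figure D4:**
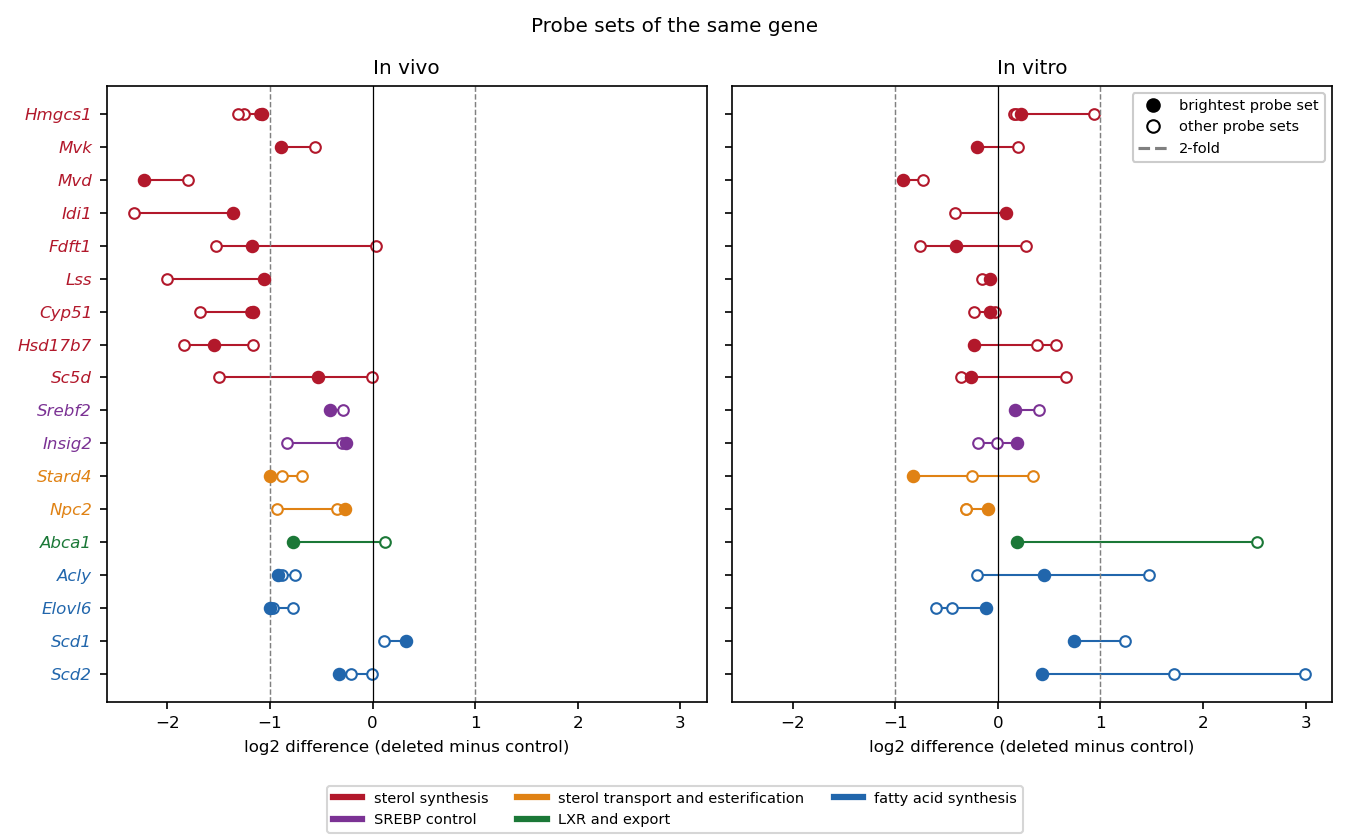
Log2 difference, deleted minus control (x axis) for every probe set above the cutoff of the 18 genes that have more than 1 (rows), in vivo (left) and in vitro (right). Filled points are the brightest probe set of a gene, open points the others, and dashed lines mark 2-fold. The in vitro points of Scd2 run from 0.43 to 2.99 and those of Abca1 from 0.19 to 2.53.

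Of the sterol genes, Mvd and Pmvk had in vitro differences below the 5th percentile of all genes (-0.74), as did Stard4 on its brightest probe set. A fit of the deletion effect common to the systems (limma, with system as a term and 1 residual degree of freedom) called 0 of the 33 genes and 0% of 10916 genes at an adjusted p of 0.05 (Benjamini-Hochberg over all genes). The lowest adjusted p among the 33 was 0.679. At an unadjusted p of 0.05 the same limma fit listed 759 of 10916 genes and 6 of the 33, which were Mvd (-1.58 ± 0.36, SE), Tm7sf2 (-1.08 ± 0.36), Pmvk (-1.02 ± 0.21), Stard4 (-0.91 ± 0.20), Fdft1 (-0.79 ± 0.27) and Ebp (-0.63 ± 0.20). Each was lower in the deleted array of each system on its brightest probe set, which the fit used. The fit favours genes whose differences agree between the systems, so that shared direction is no separate result. The difference between the systems is the residual of that fit and was not tested.

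The deleted in vivo array also differed in markers of other cells. Fibroblast markers were at like summed levels, 57100 in the deleted and 57670 in the control array (sum of linear signals of 9 genes). That sum weighs the brightest genes most, such as Col1a1 (13.72 in the deleted and 13.57 in the control array), and does not measure the share of fibroblasts. Of the 9 genes 6 were lower and 3 higher, where 53.6% of all genes were lower, with Lum, a proteoglycan gene, at a log2 difference of -1.06 and Pdgfra at -0.59. Keratinocyte markers summed to 6426 in the deleted and 360.2 in the control array over 10 genes, and all 7 above the cutoff were at least 2-fold higher, where 2.81% of all genes were. The other 3, under the cutoff, were Cdh1 (1.66), Krt15 (-0.19) and Trp63 (-0.45). The skeletal muscle sum was 3371 in the deleted and 729.1 in the control array over 8 genes, with 6 of 7 above the cutoff at least 2-fold higher. The proliferation sum was 12720 in the deleted and 6140 in the control array. All 9 genes were higher, 5 at least 2-fold, where 53.6% of all genes were lower and 2.81% at least 2-fold higher. A marker high on the deleted in vivo array alone could pass the level cutoff through that array, so these counts are a description. The part of such cells in the in vivo sterol differences was not tested.

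In vitro, the keratinocyte sum was 563.3 in the deleted and 1051 in the control culture. Of the 7 keratinocyte markers above the cutoff, 3 were at least 2-fold lower in vitro, where 1.15% of all genes were. The muscle sum in culture was 375.5 and 438.6, and the proliferation sum 6367 and 5531 (deleted, control). Of the sebocyte markers, Mc5r, Elovl3 and Far2 were under the cutoff on all 4 arrays, while Mgst1 differed by -0.95 in vivo and Krt79 by 2.28, with its control at 4.75, under the cutoff. Adipocyte markers summed to 1921 in the deleted and 1493 in the control array in vivo. All 3 above the cutoff were higher, none by 2-fold, where 53.6% of all genes were lower and 2.81% at least 2-fold higher. Macrophage markers summed to 400.3 in the deleted and 503.2 in the control array. Of the 4 above the cutoff 2 were lower (Lyz2 at -1.06, Cd14 at -0.08) and 2 higher (Csf1r at 0.21, Cd68 at 0.05). Rbpj itself differed on its 3 probe sets by -0.10, -0.83 and -0.49 in vivo and by -1.11, -1.34 and 0.10 in vitro, and the position of the probes relative to the deleted exons was not used here.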

How the data were processed

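The deposited table holds log2 expression values (2.87 to 13.79) of 45101 probe sets on 4 arrays. The log2 scale was read from the values, and the authors' software and normalization are not given in the sources used here. RNA was primed, per the labels' protocols, with T7 oligo(dT), so signal depends on the distance from the 3′ end. Columns were quantile normalized. Of 35890 annotated probe sets, 34958 had 1 gene symbol, 932 several and the rest of the table was unnamed; 34754 symbols matched RefSeq (assembly GRCm38.p6). The 64 control probe sets were kept out. Each gene took its brightest probe set, and 10916 of 18193 genes passed a filter at the 40th percentile of the mean level.

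Differences are deleted minus control, counted at 2-fold and without a test; the fit over all arrays used limma 3.58.1 in R 4.3.3. The procedures were tested on simulated data. Named genes were all members, the other lipid genes past 2-fold, the genes above the cutoff listed with Acss2 or Mylip, and the SREBP proteases. Rbpj was named too, with markers for fibroblasts, keratinocytes, sebocytes, adipocytes, muscle, macrophages and proliferation. The genes listed with Acss2 or Mylip, the proteases and single markers were named after their values were seen. The members and lists were chosen with earlier results of these data known. Alternatives were the values as deposited, cyclic loess within pairs, centring on the median, a pseudocount, other level filters, the median of a gene's probe sets, no _x_at or _s_at probe sets, and thresholds of 1.5-fold and 3-fold.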

Additional observations from a re-analysis of the deposited data

How the results depend on the processing

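The 17 sterol synthesis genes were lower in vivo under all 8 alternatives that rescale, filter or choose probe sets (16 of 16 with the 60th percentile filter), 12 to 14 of them at least 2-fold, with medians from -1.25 to -1.10, and 2 were past 3-fold. Members past the fold lower in vivo numbered 12 to 16 under the same alternatives and 2 at 3-fold. With the 60th percentile filter, the median of probe sets, or a 3-fold threshold, 0 members were past the fold higher in vivo, since Abcg1 was then filtered out, at 0.64, or short of 3-fold. The LXR and export median was -0.77 with the 60th percentile filter, which left Abca1 alone. With the median of probe sets, 2 members were past 2-fold higher in vitro, Abca1 (2.53) and Scd2 (1.72), and Abca1 was at 0.12 in vivo. At 1.5-fold, 4 of the 33 members were lower in vitro, 3 of them sterol synthesis genes, and 2 higher, where 1054 and 557 of all 10916 genes were. Over all genes, those lower in vitro numbered 125, against 77 with loess, 83 with centring, 80 with a pseudocount, 1054 at 1.5-fold and 2 at 3-fold. Those higher in vitro numbered 86, against 248 with the median of probe sets, 557 at 1.5-fold and 13 at 3-fold. In vivo 1226 were lower and 875 higher at 1.5-fold, 112 and 80 at 3-fold, and 161 higher with the 60th percentile filter. The share of higher among in vitro calls was 40.8%, against 57.0% with loess, 55.9% with centring and 70.7% with the median of probe sets. The limma fit called no gene under any alternative tried, and a fit without the system term is among them. The system term of that fit pairs each deleted array with its control. With 1 array per group no array could be left out. Nr1h3, Abcg1 and the dimmer probe sets lay near the cutoff, so their differences rest on low signal.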
